A study of Mus musculus with 12 samples.

Results

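The question was whether mouse embryonic stem (ES) cells that lack both Ring1B and Eed express each gene as the 2 single losses would predict. All 12 arrays of the series enter the comparison, 3 for each of 4 genotypes: double deficient cells, which carry both mutations, Eed deficient cells, Ring1B deficient cells and wild type cells. For each gene the interaction was the log2 change on Ring1B loss in Eed deficient cells minus the log2 change on Ring1B loss in wild type cells. A value of 0 means that the changes of the 2 single mutants add up on the log2 scale, which multiplies the fold changes. The members are genes whose expected additive value (Eed deficient plus Ring1B deficient minus wild type) lay above the background of 4.21, the log2 of a signal of 13.56 plus 5. That left 12744 kept genes of 13984 tested, with 1240 left out. Per the labels, the Ring1B and Eed mutant lines came from gene targeting, and the double deficient line from targeting Ring1B in cells that already lacked Eed. All groups were undifferentiated ES cell cultures by colony morphology, measured on Affymetrix Mouse 430_2.0 arrays. Each genotype is represented by 1 line as far as the labels say, so differences between lines and between genotypes cannot be told apart, and p values measure only the spread between arrays of a line.

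Ring1B, encoded by Rnf2, is a ubiquitin ligase subunit of Polycomb repressive complex 1 (PRC1) and marks histone H2A. Eed is a core subunit of PRC2, which methylates lysine 27 of histone H3, a mark that some forms of PRC1 bind. Many developmental genes of ES cells carry both marks, so a gene can be reached by either complex alone or through both.

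Of the kept genes, 62 had a positive interaction (0.487%) and 167 a negative one (1.31%) at an adjusted p under 0.05 in limma, together 229 (1.8%). Over all genes tested, before the limit, 99 were positive (0.708%) and 167 negative (1.19%), together 266 (1.9%). For the simple differences, 150 genes were higher (1.07%) and 115 lower (0.822%) in double deficient than in Eed deficient cells, and 655 higher (4.68%) and 350 lower (2.5%) in Ring1B deficient than in wild type cells. Double deficient cells had 1781 higher (12.7%) and 836 lower genes (5.98%) against Ring1B deficient cells, and 2723 (19.5%) and 1589 (11.4%) against wild type. Eed deficient cells had 1509 (10.8%) and 637 (4.56%) against wild type. The median interaction over all kept genes was 0.02, with quartiles of -0.26 and 0.3. Called interactions had a median of 1.27 on the positive side (0.67 to 2.94) and of -1.49 on the negative side (-0.74 to -5.38). The interaction has a median SE of 0.3, against 0.21 for a difference of 2 genotypes. Both counts depended on single arrays. Without double deficient replicate 3 there were 12 positive and 63 negative calls, and without double deficient replicate 1 there were 28 and 80. Without Ring1B deficient replicate 3 there were 30 and 109. The positive count alone was 37 without double deficient replicate 2 and 40 without Eed deficient replicate 2. With arrays centred on their medians the split was 27 positive and 279 negative calls, and with no log it was 46 and 64. Other settings raised both counts, to 432 and 719 with a replicate block and to 191 and 344 with array quality weights. Array medians differed, from 19.07 to 28.01, and the highest belonged to double deficient replicate 3.

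**Figure D1:**
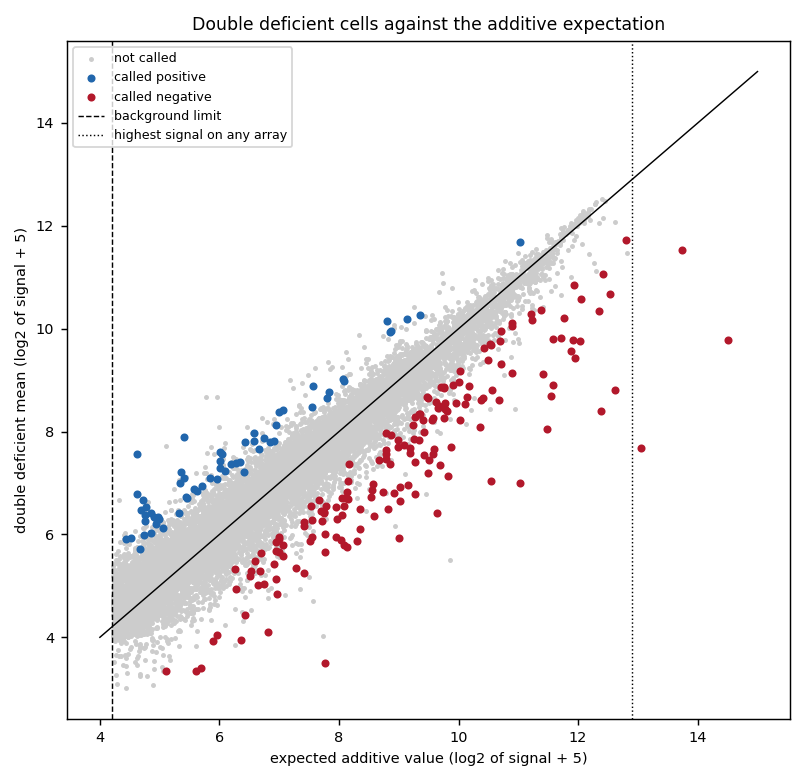
Mean of the 3 double deficient arrays against the expected additive value for the 12744 kept genes, both as log2 of signal plus 5. The solid line marks equality, the dashed line the background limit of 4.21 and the dotted line the highest signal on any array (7653). The 167 negative calls lie below the diagonal and the 62 positive calls above it.

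As a check of the labels, the brighter Eed probe set gave 87.1, 47.5 and 79.1 in double deficient, 37.3, 25 and 51.1 in Eed deficient, and at least 1248 in each Ring1B deficient and wild type array. The brightest Rnf2 probe set gave 362, 399 and 387 in double deficient cells, 679, 973 and 685 in Eed deficient cells, 398, 529 and 476 in Ring1B deficient cells, and 777, 994 and 781 in wild type cells. A dimmer probe set of Rnf2 ran opposite, higher where Ring1B was targeted, with 36.1, 36.5 and 42.8 in double deficient, 19.7, 25.9 and 21.3 in Eed deficient, 55.5, 55.3 and 69.7 in Ring1B deficient, and 26, 25.6 and 38 in wild type cells. The Rnf2 probe set next in signal to the brightest followed the brightest. Its means were 275 in double deficient, 531 in Eed deficient, 330 in Ring1B deficient and 632 in wild type cells. The other Eed probe set (means of 12.7 to 18) and the remaining Rnf2 probe sets (2.06 to 19.4) lay near or under background. Neither gene was called for the interaction (0.64 for Eed, adjusted p = 0.368, and -0.14 for Rnf2, adjusted p = 0.795, limma). On Ring1B loss Rnf2 changed by -1.0 in the Eed deficient and by -0.86 in the wild type background. Which exons were deleted is not stated in the labels, so remaining Rnf2 signal does not measure the protein.

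The most frequent pattern among negative calls was a gene raised in both single mutants. How far double deficient cells rose differed between these genes. Both singles were over 1 log2 above wild type for 93 of the 167 negative calls (55.7%), against 324 of all kept genes (2.54%). These shares describe the calls and test nothing, because the same arrays define the pattern and the interaction. In the 93 genes the median log2 change against wild type was 2.13 in double deficient, 2.03 in Eed deficient and 1.95 in Ring1B deficient cells. The double deficient mean minus the higher of the single means had a median of -0.05 (-2.58 to 1.07). The double deficient mean lay above the higher single for 44 genes (26.3% of negative calls, against 1.77% of all kept genes). For 49 genes the mean was at or under the higher single (29.3%, against 0.777%). In signal units, the level expected if the changes added up is Eed deficient plus Ring1B deficient minus wild type. The ratio of the double deficient mean to that level had a median of 0.64, and 8 of the 93 exceeded it. Without double deficient replicate 3 the group held 42 genes, and without replicate 1 it held 53.

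Srgn, a proteoglycan core protein of secretory granules, had signals of 865, 950 and 814 in double deficient, 1026, 1114 and 952 in Eed deficient, 1124, 1592 and 1494 in Ring1B deficient, and 39.7, 60.5 and 75.9 in wild type cells. All 9 mutant arrays lay far above the wild type arrays, and the double deficient arrays were at or under both singles. Its interaction was -4.73 (SE 0.27, adjusted p = 1.7e-06, limma). Loss of Ring1B went with a log2 change of -0.23 in the Eed deficient background and of 4.49 in the wild type background. The multiplied expectation for Srgn was a signal of 23257, above the highest signal of 7653 on any array. The expectation exceeded that signal for 3 kept genes, Srgn, Ttr and Col4a1, all called negative, with double deficient means of 876, 214 and 2971.

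Promoter sequences of 4 genes described here are shown, chosen after their values were seen, because they span a wide range of CpG density, a sequence feature linked to Polycomb binding. Each runs from 250 bases before to 50 bases after the gene's start (RefSeq, build GRCm38.p6), with every CG in capitals. Col4a1, Cubn and Hoxa9 had negative interactions, Zfp869 a positive one.
Col4a1 promoter, chr8:11312777-11313076, minus strand: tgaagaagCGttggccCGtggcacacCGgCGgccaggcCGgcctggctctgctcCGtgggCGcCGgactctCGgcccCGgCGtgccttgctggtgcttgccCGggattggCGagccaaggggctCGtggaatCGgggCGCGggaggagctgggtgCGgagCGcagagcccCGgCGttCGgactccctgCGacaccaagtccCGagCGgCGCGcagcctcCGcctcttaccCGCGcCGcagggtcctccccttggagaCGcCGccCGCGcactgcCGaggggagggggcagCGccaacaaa
Cubn promoter, chr2:13491827-13492126, minus strand: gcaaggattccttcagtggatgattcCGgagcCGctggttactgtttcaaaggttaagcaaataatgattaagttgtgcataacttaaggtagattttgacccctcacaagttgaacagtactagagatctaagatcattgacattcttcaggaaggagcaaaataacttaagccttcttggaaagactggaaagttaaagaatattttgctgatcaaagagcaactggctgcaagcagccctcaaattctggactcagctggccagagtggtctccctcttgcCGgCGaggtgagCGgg
Hoxa9 promoter, chr6:52227321-52227620, minus strand: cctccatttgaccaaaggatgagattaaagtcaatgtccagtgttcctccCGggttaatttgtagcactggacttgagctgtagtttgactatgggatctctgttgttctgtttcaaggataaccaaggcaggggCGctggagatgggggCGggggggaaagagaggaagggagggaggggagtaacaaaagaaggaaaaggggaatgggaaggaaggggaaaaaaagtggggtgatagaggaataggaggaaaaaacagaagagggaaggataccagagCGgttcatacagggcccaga
Zfp869 promoter, chr8:69716853-69717152, minus strand: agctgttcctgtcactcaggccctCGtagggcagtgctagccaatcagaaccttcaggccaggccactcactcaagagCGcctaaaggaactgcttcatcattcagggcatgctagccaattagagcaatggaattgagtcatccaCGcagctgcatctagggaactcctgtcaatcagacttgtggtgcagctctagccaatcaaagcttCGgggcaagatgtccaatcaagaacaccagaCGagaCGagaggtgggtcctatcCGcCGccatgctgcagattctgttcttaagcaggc
The 4 windows hold 37, 5, 4 and 8 CG pairs in that order. The 124 negative genes with a promoter entry are 74.3% of the 167, under the share needed for a check over the set. Promoter features computed for the set are therefore not interpreted here.

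Hox cluster genes, transcription factors that pattern the body axis, were the list with the most negative calls. Of 26 kept members 10 were called negative (38.5%) and 0 positive, against 1.31% and 0.487% of all kept genes. The median interaction was -1.14 against 0.02 over all kept genes. Median changes of the list against wild type were 1.92 in double deficient, 1.54 in Eed deficient and 1.44 in Ring1B deficient cells. Hoxa9 had signals of 140, 122 and 107 in double deficient, 98, 99.9 and 124 in Eed deficient, 169, 175 and 155 in Ring1B deficient, and 1.49, 3.52 and 9.08 in wild type cells. Its mutant arrays overlapped between double and Eed deficient cells and stood clear of wild type (interaction -4.03, SE 0.33, adjusted p = 3.1e-05). Hoxc4 was nearly level in the mutants, with 69.2, 89 and 85.6 in double deficient, 68.8, 67.2 and 65.4 in Eed deficient, 71, 70.6 and 63.4 in Ring1B deficient, and 1.24, 0.988 and 2.7 in wild type cells (interaction -3.22, adjusted p = 1.4e-05). Hoxa10 differed in that each double deficient array (156, 120 and 151) exceeded each Eed deficient array (71, 72.2 and 105), with 118, 101 and 95.2 in Ring1B deficient and 11.3, 5.9 and 7.97 in wild type cells (interaction -2.29, adjusted p = 0.00134). The other called members were Hoxd10, Hoxd8, Hoxd9, Hoxd13, Hoxc9, Hoxd11 and Hoxc13, with interactions between -2.24 and -1.31. Wild type signals near 0 make these log2 values depend on the added value of 5.

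Carrier and uptake genes of visceral endoderm, the epithelium that feeds the early embryo, had the lowest list median, -1.58 over 20 kept members. Called negative were 4 (20%, against 1.31% of all kept genes) and positive 0. Cubn, the endocytic receptor cubilin, gave 345, 296 and 362 in double deficient, 406, 367 and 146 in Eed deficient, 333, 462 and 445 in Ring1B deficient, and 9.28, 33.7 and 14.6 in wild type cells (interaction -3.98, SE 0.52, adjusted p = 0.0019). Dab2, an adaptor for endocytosis, gave 502, 350 and 503 in double deficient, 625, 712 and 264 in Eed deficient, 427, 614 and 691 in Ring1B deficient, and 39.7, 53 and 29.8 in wild type cells (interaction -3.81, adjusted p = 0.001). For both genes the mutants overlapped, and Eed deficient replicate 3 was the lowest Eed deficient array. Ttr, the carrier transthyretin, had the largest interaction, -5.38 with an SE of 1.14 (adjusted p = 0.0281), from scattered signals: 309, 120 and 211 in double deficient, 261, 1179 and 96.3 in Eed deficient, 202, 388 and 35.6 in Ring1B deficient, and 0.563, 0.414 and 0.637 in wild type cells. With an added value of 20 Ttr was not called (-3.68, adjusted p = 0.0901). Ctsh, a lysosomal cysteine protease, was the other called member (-2.87, adjusted p = 0.0146).

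The called endoderm transcription factors and basement membrane genes were also raised in both single mutants. Their double deficient means were the highest of all and still below the multiplied expectation. Of 14 kept endoderm factors 3 were called negative (21.4%) and 0 positive (median -0.72). Of 18 basement membrane genes 4 (22.2%) and 0 were called (median -0.3), against 1.31% negative calls over all kept genes. Sox17, a regulator of endoderm, gave 724, 857 and 692 in double deficient, 373, 320 and 380 in Eed deficient, 160, 196 and 227 in Ring1B deficient, and 10.2, 16.7 and 15.4 in wild type cells. The 4 genotypes did not overlap. The interaction was -2.32 (SE 0.25, adjusted p = 4.8e-04), since Ring1B loss raised Sox17 by 1.07 in the Eed deficient and by 3.39 in the wild type background. The double deficient mean of 758 compared with 3781 if the fold changes multiplied and with 538 if the signal changes added up, so the sign depended on the scale. Lama1, a laminin chain, gave 1241, 1426 and 1236 in double deficient, 902, 741 and 634 in Eed deficient, 407, 503 and 393 in Ring1B deficient, and 58.8, 48.5 and 68.6 in wild type cells (-2.01, adjusted p = 9.1e-04). It too exceeded the added expectation, by 167 signal units. Col4a1 and Col4a2, the main collagen IV chains, had interactions of -2.22 and -1.87, and Sparc, a collagen-binding glycoprotein, of -1.07. Gata6, which directs primitive endoderm, had 271, 308 and 299 in double deficient, 178, 131 and 150 in Eed deficient, 102, 146 and 134 in Ring1B deficient, and 17.8, 24.6 and 25.3 in wild type cells (-1.33, adjusted p = 0.0164). Foxa2 was the other called factor (-1.47), and Gata4, also of primitive endoderm, was not called (-0.68, adjusted p = 0.213).

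**Figure D2:**
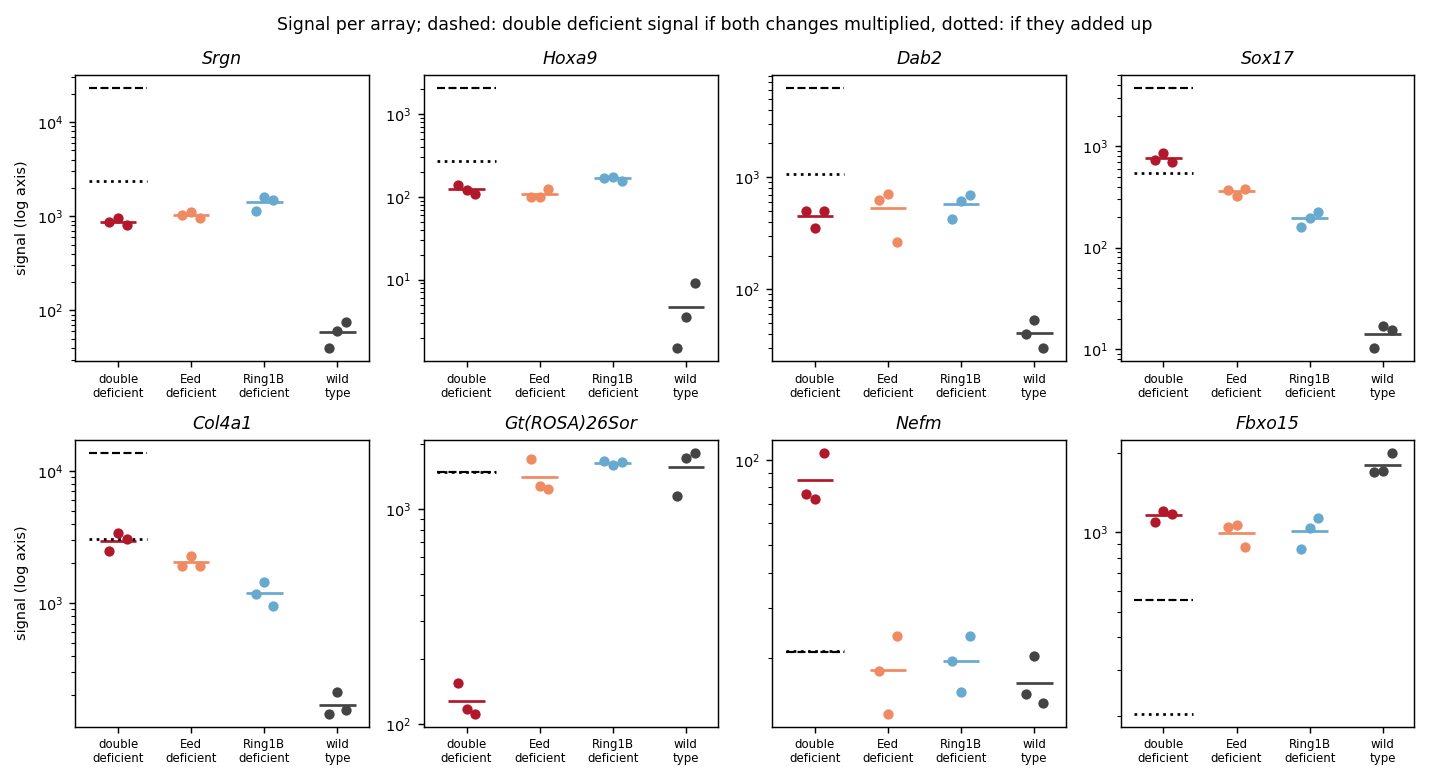
Signal of 8 genes in each of the 12 arrays on log axes, with bars at the genotype means. Dashed lines mark the double deficient signal expected if the fold changes multiplied and dotted lines if the signal changes added up. Srgn, Hoxa9 and Dab2 lie under both lines, Sox17 and Col4a1 far under the dashed line, Gt(ROSA)26Sor below all other arrays, and Nefm and Fbxo15 above both lines.

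Other lineage lists held single calls, beside 1.31% negative and 0.487% positive calls over all kept genes. Zic1, a neural transcription factor, was called negative (-2.0, adjusted p = 0.001), with 196, 175 and 182 in double deficient, 73.7, 57.2 and 67.6 in Eed deficient, 182, 156 and 124 in Ring1B deficient, and 10.8, 10.4 and 8.16 in wild type cells. Its double deficient signals lay with the Ring1B deficient ones, well above the Eed deficient ones. Zic1 was the call among 16 kept neuroectoderm genes (6.25%). Pax6 (1.92) and Neurod1 (2.64) of that list were called positive but left out by the background limit. Tbx15 was the call among 22 mesoderm genes (-2.34) and Bmp4 among 37 signalling ligands (-1.93, adjusted p = 0.0239). Of 16 trophoblast genes 0 were called, with a median of -0.64, and Cdx2 and Hand1 gave -1.02 and -0.54 (adjusted p = 0.312 and 0.603). Bmi1 was the only called member of 34 Polycomb genes (-1.19, adjusted p = 0.00966). This PRC1 subunit gave 388, 334 and 345 in double deficient, 311, 289 and 288 in Eed deficient, 245, 222 and 253 in Ring1B deficient, and 87.5, 71.2 and 97.5 in wild type cells, without overlap between genotypes. Ezh2, the PRC2 methyltransferase, gave -0.58 (adjusted p = 0.131), Suz12 0.05 and Ring1 0.12.

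Germline genes had 4 negative calls (14.3%) and 1 positive (3.57%) among 28 kept members (median -0.56). Over all kept genes the shares were 1.31% and 0.487%. Mael, which acts in transposon silencing in the germline, gave 1117, 1339 and 1100 in double deficient, 403, 508 and 386 in Eed deficient, 1662, 1954 and 1766 in Ring1B deficient, and 174, 230 and 260 in wild type cells (-1.56, adjusted p = 0.00374). Its double deficient arrays lay between the single mutants. Tdrkh, a tudor domain protein of the same pathway, had the same order of genotypes (-1.33). Tex13b was the most negative of the called members (-1.75, adjusted p = 0.0102, limma). Its means were 400 in double deficient, 245 in Eed deficient, 63.8 in Ring1B deficient and 7.75 in wild type cells. The double deficient mean exceeded the 301 expected if signal changes added up, so the sign depended on the scale. Stag3, a meiotic cohesin subunit, was below all other arrays in double deficient cells, with 71.6, 89.7 and 74.5 in double deficient, 227, 235 and 192 in Eed deficient, 200, 210 and 176 in Ring1B deficient, and 132, 181 and 178 in wild type cells (-1.67, adjusted p = 0.0026). Sycp1, of the synaptonemal complex, went the other way, with 122, 155 and 99.9 in double deficient and at most 42.5 in any other array (1.67, adjusted p = 0.0496), and was not called with quantile normalization (adjusted p = 0.0535).

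In a smaller class both singles stayed close to wild type and the double deficient arrays lay outside the range of all others. With both singles within 0.5 of wild type and the 3 double deficient arrays beyond the other 9, there were 9 positive calls, 2210409E12Rik, Ap1s2, Arg2, B3glct, Ctns, Nefm, Nsg1, Snx25 and Sycp1, and 11 negative calls, a class formed after values were seen. By the same criteria on the arrays alone, 552 kept genes (4.33%) lay above and 458 (3.59%) below. The limit of 0.5 still admits shifted singles, which then enter the interaction. Against wild type, B3glct changed by 0.48 in double deficient, -0.47 in Eed deficient and -0.37 in Ring1B deficient cells. Nefm, a neurofilament subunit, gave 76, 72.9 and 106 in double deficient, 17.9, 12.7 and 23.8 in Eed deficient, 19.5, 15.1 and 23.8 in Ring1B deficient, and 14.9, 20.3 and 13.8 in wild type cells (1.78, SE 0.33, adjusted p = 0.0161). Arg2, the mitochondrial arginase, gave 69.7, 108 and 123 in double deficient cells and at most 24.5 elsewhere (1.96, adjusted p = 0.0173), and was not called with the mean of all probe sets (1.68, adjusted p = 0.0816).

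Among the 11 negative calls of this class, Gt(ROSA)26Sor had the largest interaction, -3.5 (SE 0.26, adjusted p = 1.4e-05). This broadly transcribed locus gave 156, 118 and 112 in double deficient, 1707, 1274 and 1243 in Eed deficient, 1665, 1609 and 1659 in Ring1B deficient, and 1145, 1731 and 1825 in wild type cells. Pla2g1b, a secreted phospholipase, gave 65.8, 44 and 62.7 in double deficient, 345, 279 and 277 in Eed deficient, 279, 200 and 239 in Ring1B deficient, and 348, 218 and 325 in wild type cells (-2.01, adjusted p = 0.0037). Rbpj, the DNA-binding partner of Notch, gave 433, 503 and 491 in double deficient cells against 693 or more (-1.0, adjusted p = 0.0239). The others were Stag3, Crybg2, Gnpat, Lrrc40, Hibadh, Mad2l1, Mrps35 and Retsat. With Gt(ROSA)26Sor, the last 4 lie on chromosome 6. Against wild type, Gt(ROSA)26Sor changed by -3.54 in double deficient, -0.14 in Eed deficient and 0.1 in Ring1B deficient cells. For Mad2l1 these changes were -0.2, 0.41 and 0.3, and for Retsat -0.42, 0.46 and 0.39. Rises of the singles thus make up much of the interaction of Mad2l1 and Retsat.

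Positive interactions were mostly genes lower in both single mutants, and the double deficient mean was the lowest of the 4 genotypes for 0 of them. That mean was the highest of the 4 for 38 of the 62 (61.3%, against 39.5% of all kept genes). For 20 of the 62 the double deficient arrays lay above all 9 others (32.3%, against 8.55%). Both singles lay below wild type for 44 of the 62, and in 27 of the 62 the double deficient mean was also within 0.5 of wild type. Among all kept genes these patterns held for 4184 (32.8%) and 2962 (23.2%), and the shares test nothing, since the same arrays define pattern and interaction. Fbxo15, an F-box gene of ES cells, gave 1096, 1202 and 1179 in double deficient, 1048, 1063 and 882 in Eed deficient, 867, 1037 and 1130 in Ring1B deficient, and 1700, 1707 and 2004 in wild type cells (1.06, adjusted p = 0.00938). All mutant arrays lay under wild type. Fbxo15 and Tfcp2l1, an ES cell transcription factor called negative (-1.51), were the calls among 29 pluripotency genes. That is 3.45% in each direction, against 0.487% positive and 1.31% negative calls over all kept genes. Nothing particular to the list is read from 1 call in each direction. Nanog, Pou5f1 and Sox2 were not called (-0.57, -0.13 and 0.28, adjusted p = 0.128, 0.723 and 0.68). Zfp869, a zinc finger gene, gave 114, 105 and 95.6 in double deficient, 42.6, 38.7 and 33.3 in Eed deficient, 30.4, 48.3 and 32.5 in Ring1B deficient, and 71.9, 82.6 and 51.5 in wild type cells (2.16, adjusted p = 0.00205). Here double deficient cells exceeded every other array. Usp17la and AF067061 had the largest positive values, 2.48 and 2.94 (adjusted p = 0.0199 and 0.0183), and for each gene wild type replicate 3 (149 and 200) fell inside the double deficient range.

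The imprinted list had 2 positive calls (8%) and 1 negative (4%) among 25 kept members, against 0.487% and 1.31% of all kept genes. Counts this small carry little weight. Impact gave 382, 278 and 364 in double deficient, 311, 281 and 250 in Eed deficient, 281, 255 and 237 in Ring1B deficient, and 567, 612 and 483 in wild type cells (1.36, adjusted p = 0.00775), and lost its call with the mean of all probe sets (0.89, adjusted p = 0.0643). Ndn gave 0.91, with double deficient signals of 495, 504 and 508 above all others, and was not called with median centring (adjusted p = 0.0778). Cdkn1c, a cell cycle inhibitor, gave -1.42 (adjusted p = 0.0139), and its Ring1B deficient arrays were the highest. The background limit mattered most here: Meg3, Rian and Mirg, noncoding RNAs of one cluster, were called positive but left out, because their fall in both singles puts the expectation under background. Of 1240 genes left out, 37 (2.98%) were called positive. D630023F18Rik (expected value 4.44, interaction 1.47) was the called gene just inside the limit and Prex2 (4.18, 2.24) the one just outside.

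**Figure D3:**
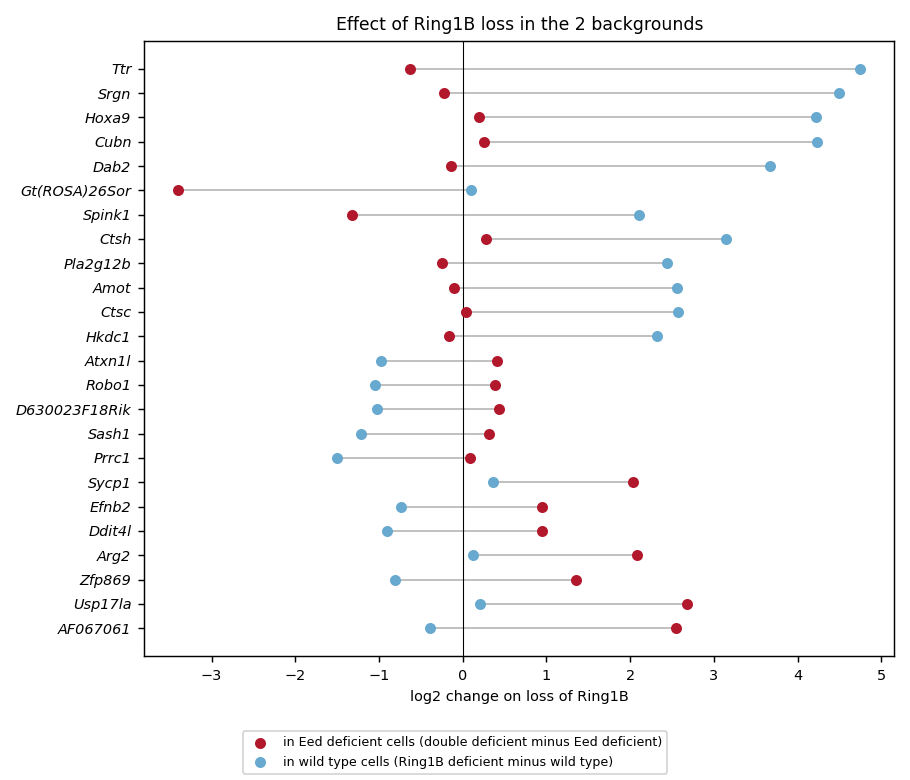
Log2 change on loss of Ring1B in Eed deficient cells (red) and in wild type cells (blue) for the 12 most negative and 12 most positive called genes that met the naming rule. The distance between the points of a gene is its interaction. For Srgn, Hoxa9, Cubn and Dab2 the red points lie near 0.

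Markers of fibroblasts and feeder cells differed between arrays within a genotype. The summed signal of 27 tested markers was 14236 to 15513 in double deficient cells, 6612, 6879 and 14721 in Eed deficient cells, 3571 to 4534 in Ring1B deficient cells and 4770 to 5439 in wild type cells, so Eed deficient replicate 3 stood apart. Macrophage markers gave 884 to 1337 in double deficient, 355, 460 and 1427 in Eed deficient, 427 to 494 in Ring1B deficient and 338 to 527 in wild type cells. Col1a2, a fibrillar collagen chain, had 676, 884 and 696 in double deficient, 238, 292 and 650 in Eed deficient, 148, 161 and 85.8 in Ring1B deficient, and 173, 151 and 176 in wild type cells (1.43, adjusted p = 0.117). Other defining fibroblast markers were mixed, with 1.59 for Col1a1, 1.85 for Col3a1, 1.69 for Postn, -0.28 for Thy1 and -0.33 for Pdgfrb. Of the macrophage markers, Cd68 had a mean of 41.5 in double deficient and 75.5 in wild type cells. Csf1r was highest in Eed deficient replicate 2 (123) and Ptprc was not tested. Adgre1 gave 24.5, 32.1 and 29.4 in double deficient and 7.16, 9.99 and 25.3 in Eed deficient cells. It was left out because its expected value lay under background. Lyz2 gave 212, 322 and 278 in double deficient and 38.3, 25.6 and 357 in Eed deficient cells. Both thus followed the summed macrophage signal, while Cd68 and Csf1r did not. The fibroblast and feeder cell list had a median interaction of 0.97, and 0 of 26 kept members were called. Without Eed deficient replicate 3, 13 of 24 were called positive (median 1.42), with 84 positive and 140 negative calls in all. The part of these markers in the other results was not tested.

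**Figure D4:**
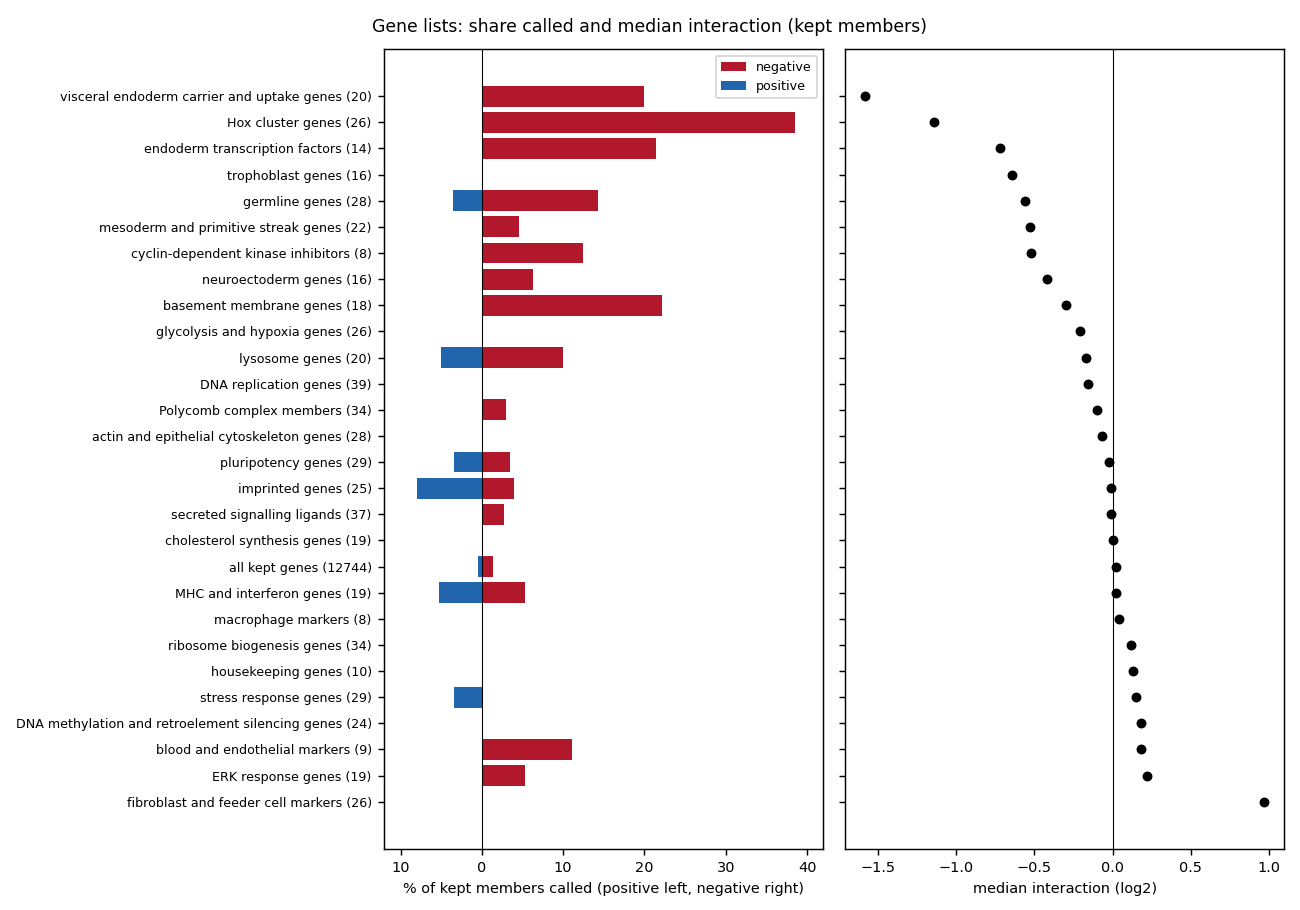
Share of kept members called positive (left of 0) or negative (right) and the median interaction of each gene list with at least 8 kept members, with the number of kept members in parentheses. Hox cluster genes have the highest share of negative calls, and fibroblast and feeder cell markers the highest median (0.97) of the lists drawn.

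Chromosome 6 stood apart from the other chromosomes. It held 34 of the 167 negative calls, 5.34% of its 637 kept genes against 1.1% elsewhere, and its median interaction was -0.33. Its genes ran 0.07, 0.08 and 0.11 above the other chromosomes in double deficient, 0.35, 0.38 and 0.34 in Eed deficient, 0.01, 0.06 and 0.03 in Ring1B deficient and 0 in each wild type array, as medians of log2 values against the wild type mean. The shift was thus present in all 3 Eed deficient arrays and smaller in the double deficient ones. Along 6 parts of equal gene number the median change from Eed deficient to double deficient cells was 0, -0.13, -0.23, -0.34, -0.32 and -0.41. Hoxa9, Hoxa10, Gt(ROSA)26Sor, Nanog and Ezh2 lie on this chromosome. On chromosome 11 the median interaction was 0.19, and all 9 mutant arrays ran 0.19 to 0.22 below the other chromosomes. With each array centred per chromosome, an alternative chosen after seeing the data, there were 54 positive and 145 negative calls, with 10 negative calls on chromosome 6. Leaving out the genes of chromosome 6 gave 61 and 133. The cause was not tested.

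**Figure D5:**
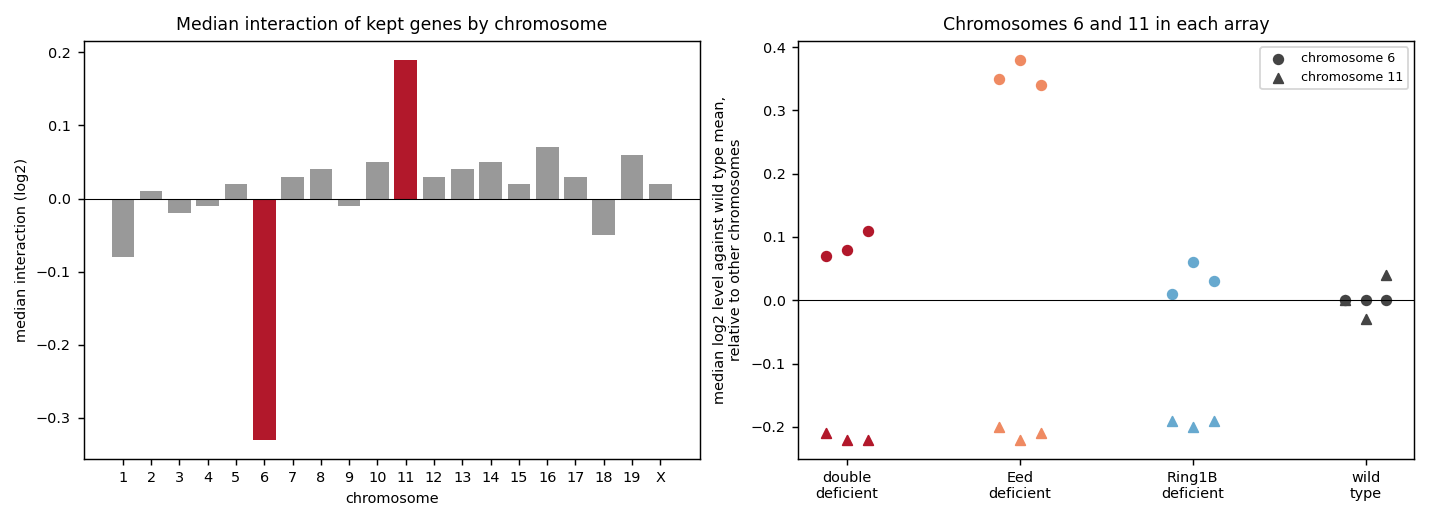
Left, median interaction of kept genes on each chromosome, lowest on chromosome 6 (-0.33) and highest on chromosome 11 (0.19). Right, median log2 level of the genes of chromosomes 6 (circles) and 11 (triangles) in each array against the wild type mean, relative to other chromosomes, with the 3 Eed deficient arrays at 0.34 to 0.38 on chromosome 6.

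Of 39 DNA replication, 34 ribosome biogenesis, 26 glycolysis and hypoxia, 19 cholesterol synthesis, 24 DNA methylation and silencing, 28 actin and epithelial cytoskeleton and 10 housekeeping genes, 0 were called, with list medians between -0.21 and 0.18. With 1.8% of all kept genes called, lists of this size are expected to hold few or no calls, and nothing particular to them is read from the count. Over all tested genes, 1214 positive and 1105 negative interactions had an unadjusted p under 0.05. Of 20 lysosome genes, Ctsc and Lgmn, both lysosomal proteases, were called negative (-2.53 and -2.13) and Gaa, the lysosomal glucosidase, positive (0.9). Ifitm3 and Oas1a, both interferon-induced, were called in opposite directions (1.08 and -1.23). Mdm2, the ubiquitin ligase of p53, was the call among 29 stress genes (0.86, adjusted p = 0.0365), with 416, 425 and 355 in double deficient, 340, 323 and 280 in Eed deficient, 308, 302 and 285 in Ring1B deficient, and 377, 445 and 470 in wild type cells. Phlda1, of the ERK response, was called negative (-1.41).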

How the data were processed

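Messenger RNA of 4 ES cell genotypes was measured on 12 arrays. The deposited values are linear intensity values from MAS5, which the submitters' processing notes name without a version. The trimmed mean of each array was 100, so arrays had been scaled, and replicate arrays correlated at 0.963 to 0.984 across genes. Of 45037 probe sets that are not controls, 34945 carried 1 gene symbol, 932 several and 9160 none. A probe set was used if at least 3 arrays lay above their 40th percentile, with the brightest per gene. To log2(signal + 5), limma 3.58.1 in R 4.3.3 fitted 1 mean per genotype, moderated with an intensity trend. The limma p values carry Benjamini-Hochberg adjustment over 13984 genes, called under 0.05. Fold changes of dim genes are understated on this scale. Precision is limited by the number of arrays. The procedure was tested on simulated data, with interactions of 1 fixed size planted in genes of moderate to high expected value. Recovery of smaller interactions and of dim genes was not tested there. The scoring was changed after a first version missed its own limit on false calls. All contrasts share arrays, so their values are given side by side. The labels call the samples biological replicates. Same-numbered arrays deviated together with correlations of 0.16 to 0.43 for number 1, 0.27 to 0.61 for number 2 and -0.05 to 0.18 for number 3. The labels state no pairing, so the main fit had no replicate block. A fit with that block is given among the alternatives.

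Named genes are the 12 most positive and 12 most negative called kept genes whose highest genotype mean exceeds the median gene, up to 3 members of each list with a call, up to 6 genes each with both singles within 0.5 of wild type or over 1 above it, and Rnf2, Eed, Pou5f1, Nanog, Sox2, Gata4, Gata6, Sox17, Cdx2, Hand1, Ezh2, Suz12, Ring1 and Bmi1. Other genes were named after their values were seen. The members, lists and rules were chosen with earlier results of these data known. Alternatives were normalization, added value, signals with no log, filters, probe set summary, trend, array weights, a replicate block, background and upper limits, and leaving out arrays. The gene T was not analysed here.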

Additional observations from a re-analysis of the deposited data

Results flagged for a closer look

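The interaction is itself a test of whether the effect of Ring1B loss differs between the Eed deficient and the wild type background, so the called genes that meet the naming rule are given here with their log2 interaction. The test called 62 kept genes positive and 167 negative. The named Hox genes were Hoxa9 (-4.03), Hoxc4 (-3.22) and Hoxa10 (-2.29). The named genes of the lists of endoderm factors, visceral endoderm carriers and uptake, and basement membrane were Ttr (-5.38), Cubn (-3.98), Dab2 (-3.81), Ctsh (-2.87), Sox17 (-2.32), Col4a1 (-2.22), Lama1 (-2.01), Col4a2 (-1.87), Foxa2 (-1.47) and Gata6 (-1.33).

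The other named genes for which Ring1B loss changed the level less, or further downward, in the Eed deficient background were Srgn (-4.73), Alox12b (-4.26), Gt(ROSA)26Sor (-3.5), Spink1 (-3.42), Pla2g12b (-2.69), Amot (-2.67), Ctsc (-2.53), Hkdc1 (-2.49), Tbx15 (-2.34), Lgmn (-2.13), Zic1 (-2), Bmp4 (-1.93), Tex13b (-1.75), Stag3 (-1.67), Tfcp2l1 (-1.51), Cdkn1c (-1.42), Phlda1 (-1.41), Oas1a (-1.23) and Bmi1 (-1.19). Genes with both single mutants near wild type and a positive value were Nsg1 (1.3), B3glct (1.31), 2210409E12Rik (1.56), Sycp1 (1.67), Nefm (1.78) and Arg2 (1.96). The remaining positive values were Mdm2 (0.86), Gaa (0.9), Ndn (0.91), Fbxo15 (1.06), Ifitm3 (1.08), Impact (1.36), Atxn1l (1.39), Robo1 (1.43), D630023F18Rik (1.47), Sash1 (1.52), Prrc1 (1.59), Efnb2 (1.7), Ddit4l (1.86), Zfp869 (2.16), Usp17la (2.48) and AF067061 (2.94).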

How the results depend on the processing

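The called genes kept their sign under every alternative in which they had a value, except signals with no log. There 221 of 229 did. The same arrays picked these genes, so a kept sign is weak evidence. The filter at the 60th percentile left a value for 218 of the 229. Fewer stayed called, for example 94 on signals with no log, 105 without double deficient replicate 1 and 74 without double deficient replicate 3. With no log, Dab2, Hoxa10, Col4a1 and Zic1 were among the genes not called (adjusted p = 0.0531, 0.333, 0.918 and 0.545, limma). The counts moved as well. Against 62 positive, 167 negative and 93 negative calls with both singles raised, the replicate block gave 432, 719 and 198 and also called Nanog (adjusted p = 0.0289) and Ezh2 (adjusted p = 0.0268). The arrays numbered 1 and 2 deviated together and those numbered 3 did not in every pair, so the pairing is a hint from the data and not the design. Array quality weights gave 191 and 344. Median centring gave 27 and 279, signals with no log 64 negative, no filter 39 positive and no background limit 99 positive. Without all 4 arrays numbered 2 there were 39 and 103, an alternative chosen after seeing the data. Leaving out 1 array gave 12 to 84 positive, 63 to 183 negative and 42 to 107 calls with both singles raised. On signals with no log the direction reversed, in signal units, for Sox17 (220), Lama1 (167), Col4a2 (189), Tex13b (98.8), Gata6 (35.1), Gata4 (25) and Eed (-181). Genes not called crossed 0: Ring1 gave -0.02 with quantile normalization, -0.05 with median centring and -0.07 without wild type replicate 1 (up to 0.25 with another array left out). Suz12 gave -0.12 with median centring, -0.11 centred per chromosome, and -0.02, -0.03 and -0.01 without double deficient replicate 1, Eed deficient replicate 3 and wild type replicate 3 (up to 0.14 with another left out). Rnf2 gave 0.03 without Eed deficient replicate 2 (down to -0.26 with another left out), and Pou5f1 0.01 without all arrays numbered 2. Of 54 called named genes, 28 stayed called whichever single array was left out. 2210409E12Rik, Alox12b, Bmp4, Gaa, Mdm2, Ndn, Nsg1, Phlda1, Robo1, Spink1, Sycp1 and Ttr lost their call in most of these fits. With the mean of all probe sets Prrc1 (0.61, adjusted p = 0.17) and Efnb2 (1.01, adjusted p = 0.0755) were also not called. The cause was not tested. Signals near the background limit the positive side, where expectations fall under 4.21.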

Other observations

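Among the genes left out because their expected value lay under background, some were highest in double deficient cells. Both singles were below wild type for 33 of the 37 positive calls, against 795 of all 1240 genes left out, a pattern the limit itself selects. The double deficient arrays exceeded all others for 114 of the 1240, and for 9 of the 37: Cadps2, D13Ertd608e, Fam163a, Nat8l, Pramel18, Pramel7, Prex2, Rarres1 and Trim43a. Prex2, an exchange factor for Rac, gave 107, 61.2 and 79.3 in double deficient, 25.2, 13 and 32.1 in Eed deficient, 14.5, 10.9 and 14.8 in Ring1B deficient, and 32.4, 20.5 and 16.9 in wild type cells. Trim43a gave 34.4, 39.5 and 74.5 in double deficient cells and at most 33.8 elsewhere. Neurod1, a neuronal transcription factor, was level in the mutants at 68.4 to 117 and lay at 460 to 474 in wild type cells. These genes were chosen after their values were seen, and their expected values have only a bound.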
